A study of Arabidopsis thaliana with 8 samples.

Results

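Copia retrotransposons were examined as a class of small RNA (sRNA) source in Arabidopsis thaliana endosperm. Members were the rows of the transposable element (TE) tables whose annotated family name started with ATCOPIA or was META1. This gave 1417 insertions in 105 families, of 27104 insertions in 319 families in the whole table. Of these, 1291 insertions belonged to ATCOPIA families and 126 to META1. They lay on all nuclear chromosomes, with 342 on chromosome 1, 290 on chromosome 2, 313 on chromosome 3, 220 on chromosome 4 and 252 on chromosome 5. Their lengths ran from 12 to 14969 bases with a median of 280 bases, so most members were fragments. Among the 187 insertions of at least 4000 bases, 53 began with TG, 59 ended with CA and 26 had both, the dinucleotides that usually bound a Copia long terminal repeat.

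The study asked how sRNAs of the endosperm depend on RNA polymerase IV (Pol IV) inherited from the mother or from the father. Endosperm is the triploid nutritive tissue of the seed, with 2 maternal genomes and 1 paternal genome, and it was dissected by hand at 7 days after pollination from pooled seeds. All crosses had a Ler mother and a Col-0 father, and 3 genotypes were sequenced. In mat nrpd1+/- (3 libraries) the Ler mother was homozygous for a mutation of NRPD1, the gene for the largest Pol IV subunit, and the Col-0 father was wild type. In pat nrpd1+/- (2 libraries, replicates 2 and 3) the Ler mother was wild type and the Col-0 father was homozygous mutant. In nrpd1-/- (3 libraries) both parents were mutant. The mutation was the T-DNA allele nrpd1a-4, which arose in Col-0 and was introgressed into Ler, so the mutant Ler mothers of mat nrpd1+/- and nrpd1-/- may carry Col-0 sequence around that gene, and where it lies was not examined here. In any comparison of these genotypes the parental dose of NRPD1 and which parent was mutant change together and cannot be told apart.

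Copia elements are retrotransposons flanked by long terminal repeats that copy themselves through an RNA intermediate. In plants Pol IV transcribes such elements, RDR2 makes the transcript double-stranded, and DCL3 cuts it to 24-nt sRNAs that guide DNA methylation back to the element. Other Dicer-like enzymes make 21- and 22-nt sRNAs, which can also arise from Pol II transcripts and from transcripts that fold back on themselves.

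Sequences are given for the insertions on which the results turn, read from the RefSeq TAIR10.1 genome, whose nuclear chromosomes are those of TAIR10, the build of the files. Each is written 5′ to 3′ on the annotated strand. The first pair had 0 reads of 24 nt in every mat nrpd1+/- library and many in both pat nrpd1+/- libraries. AT4TE45215 (META1) is chr4:9962229-9962293 (+), 65 bases, and AT2TE01450 (ATCOPIA75) is chr2:346937-347036 (-), 100 bases. Neither overlapped an annotated gene, and the nearest protein-coding genes were 758 and 501 bases away. They have no capitals.
AT4TE45215: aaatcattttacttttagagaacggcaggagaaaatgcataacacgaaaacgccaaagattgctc
AT2TE01450: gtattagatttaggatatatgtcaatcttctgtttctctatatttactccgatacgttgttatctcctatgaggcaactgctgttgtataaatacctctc

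The next pair was ATCOPIA57, the family that differed most between the heterozygotes. AT1TE58560 is chr1:17640404-17640631 (+), within the transcribed pseudogene AT1G47880, and AT2TE19990 is chr2:4818684-4818884 (+), 11243 bases from the nearest protein-coding gene. They were identical at 193 of 201 aligned bases (96.0%). Capitals mark the bases that differed or had no partner in the other copy.
AT1TE58560: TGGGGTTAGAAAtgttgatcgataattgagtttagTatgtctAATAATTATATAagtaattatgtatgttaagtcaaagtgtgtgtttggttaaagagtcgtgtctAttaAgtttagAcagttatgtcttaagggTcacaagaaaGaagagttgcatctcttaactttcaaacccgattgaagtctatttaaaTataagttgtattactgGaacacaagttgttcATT
AT2TE19990: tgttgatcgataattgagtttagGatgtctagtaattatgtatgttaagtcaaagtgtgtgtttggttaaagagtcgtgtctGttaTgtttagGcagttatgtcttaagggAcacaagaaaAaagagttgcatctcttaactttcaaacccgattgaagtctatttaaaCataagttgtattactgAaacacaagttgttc

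The third pair was META1 insertions whose 24-nt reads stood highest in nrpd1-/-. AT2TE45665 spans chr2:10652020-10653199 (-), 484 bases from the nearest protein-coding gene, and its positions 758 to 1057 (chr2:10652143-10652442) are shown. AT3TE54490 spans chr3:13331649-13332638 (-), 15666 bases from one, and its positions 1 to 245 (chr3:13332394-13332638) are shown. Capitals mark bases aligned with a complementary base in the insertion's best inverted repeat. In AT2TE45665 a base can have several such partners, so its capitals are not a strict pairing.
AT2TE45665: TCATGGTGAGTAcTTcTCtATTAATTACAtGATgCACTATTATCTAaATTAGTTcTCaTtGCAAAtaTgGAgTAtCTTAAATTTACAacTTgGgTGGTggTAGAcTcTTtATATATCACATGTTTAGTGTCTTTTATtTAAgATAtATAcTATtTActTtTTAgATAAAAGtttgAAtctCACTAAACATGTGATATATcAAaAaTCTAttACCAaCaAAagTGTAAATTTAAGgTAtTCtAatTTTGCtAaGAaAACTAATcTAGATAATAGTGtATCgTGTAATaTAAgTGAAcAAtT
AT3TE54490: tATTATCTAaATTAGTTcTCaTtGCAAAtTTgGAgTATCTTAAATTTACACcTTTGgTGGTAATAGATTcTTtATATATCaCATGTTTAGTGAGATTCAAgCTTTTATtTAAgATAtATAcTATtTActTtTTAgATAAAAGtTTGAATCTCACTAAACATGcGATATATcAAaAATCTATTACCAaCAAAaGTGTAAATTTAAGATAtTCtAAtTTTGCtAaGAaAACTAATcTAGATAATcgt

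The last pair contrasts an ATCOPIA31 element that kept many reads in nrpd1-/- with an ATCOPIA95 fragment that lost all of them. AT1TE38210 is chr1:11789450-11794079 (+), overlaps the pseudogene AT1G32590, and its first 150 bases (chr1:11789450-11789599) are shown. Its capital is a base that has no identical partner in the near-identical copy AT5TE66565. AT3TE59640 is chr3:14560519-14560707 (-), lies in the pseudogene AT3G42433 and has no capitals.
AT1TE38210: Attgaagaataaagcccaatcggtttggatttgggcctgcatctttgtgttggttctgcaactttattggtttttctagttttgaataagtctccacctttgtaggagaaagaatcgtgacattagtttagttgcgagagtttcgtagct
AT3TE59640: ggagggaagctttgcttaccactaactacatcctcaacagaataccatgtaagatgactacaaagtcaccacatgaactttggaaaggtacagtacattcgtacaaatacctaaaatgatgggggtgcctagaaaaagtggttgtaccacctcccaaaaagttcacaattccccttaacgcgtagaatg

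The reads of 24 nt counted in TEs numbered 3938138 to 5140627 per mat nrpd1+/- library, 3604164 and 7192000 in pat nrpd1+/-, then 188781 to 266482 in nrpd1-/-. Copia insertions took 230837 to 312464 of these in mat nrpd1+/-, while pat nrpd1+/- had 214301 and 385610 and nrpd1-/- 2828 to 5224, so values for nrpd1-/- rest on far fewer reads. pat nrpd1+/- replicate 2 was the deepest library with about the same order of insertions as the other pat nrpd1+/- library (Spearman's rho 0.981 across 964 Copia insertions, which are not independent replicates). Across insertions rho was 0.984 to 0.987 between mat nrpd1+/- libraries and 0.377 to 0.518 between nrpd1-/- libraries, which hold few reads. Levels are CPM, reads per 1e6 reads in genes of the same size class after trimmed-mean scaling, and a member was called changed at an adjusted p of at most 0.05 and a fold change of at least 2 in edgeR's quasi-likelihood test, with Benjamini-Hochberg adjustment over all TEs. In bulk endosperm a lower sRNA level per cell and fewer cells making the sRNA cannot be told apart. The seed coat is maternal tissue, and among these genotypes its mother was wild type only in pat nrpd1+/-. The paper saw no sign of seed coat contamination in its mRNA libraries and filtered its imprinted sRNA regions for seed coat sRNAs. Copia insertions were not filtered so here, and a seed coat share of their reads was not tested.

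Copia insertions held a similar share of the 24-nt TE reads in both heterozygotes and a smaller one in nrpd1-/-. The share was 6.08%, 6.04% and 5.86% in the mat nrpd1+/- libraries, 5.36% and 5.95% in pat nrpd1+/-, then 2.04%, 1.96% and 1.498% in nrpd1-/-. The means were 5.99% ± 0.115 (SD, n = 3), 5.65% ± 0.413 (SD, n = 2) and 1.83% ± 0.294 (SD, n = 3). The heterozygotes overlapped (exact 2-sided permutation test, p = 0.4), and no nrpd1-/- library reached either heterozygote (exact permutation p = 0.1 against mat nrpd1+/- and 0.2 against pat nrpd1+/-, the smallest these designs allow). The difference in share was smaller at 21 nt, from 5.83% ± 0.0770 (SD, n = 3) in mat nrpd1+/- to 3.86% ± 0.258 (SD, n = 3), than at 22 nt, from 6.08% ± 0.0757 to 2.49% ± 0.324, or at 23 nt, from 6.27% ± 0.0491 to 2.38% ± 0.0905, and the size classes were not tested against each other. A 24-nt read was found at 86.8% ± 1.04 (SD, n = 3) of Copia insertions in mat nrpd1+/-, at 88.8% ± 5.04 (SD, n = 2) in pat nrpd1+/- and at 44.2% ± 3.97 (SD, n = 3) in nrpd1-/-, shares that move with depth.

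**Figure D1:**
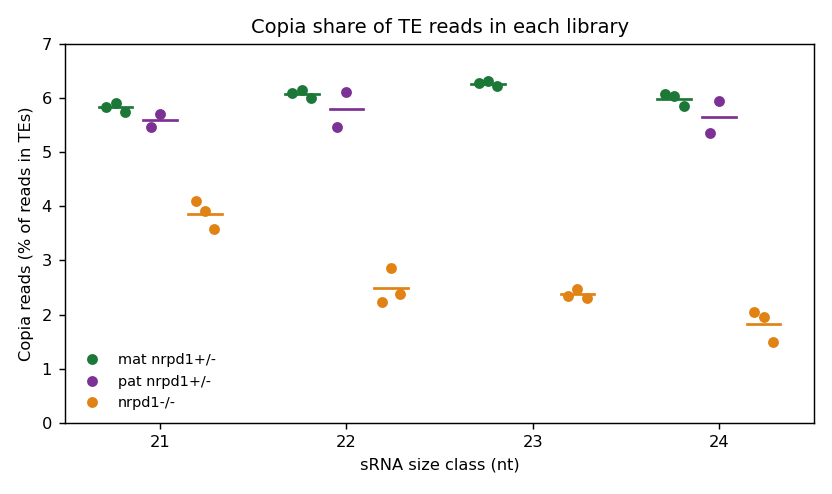
Share of TE-counted reads that lay in Copia insertions (y axis, percent) by sRNA size class (x axis), 1 point per library and coloured by genotype; 23 nt has no pat nrpd1+/- points. At 24 nt the heterozygous libraries lie between 5.36% and 6.08% and the nrpd1-/- libraries between 1.498% and 2.04%.

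A few families supplied much of the Copia sRNA in the heterozygotes. META1, the family with the most insertions, stood at 42050 CPM of 24-nt reads (mean of the mat and pat genotype means), which was 19.3% of the Copia total. ATCOPIA28 followed with 18660 CPM (8.56%) and ATCOPIA95 with 13412 CPM (6.15%), and these 3 families together held 34.0%. ATCOPIA49, ATCOPIA29 and ATCOPIA41 came next at 5400, 5348 and 5194 CPM, values closer to each other than the spread between libraries. Per kilobase of annotated sequence the order differed. ATCOPIA65A was highest at 604 CPM per kb, ATCOPIA28 stood at 421 and META1 at 302, against a median of 104 over the 105 families. The lowest were ATCOPIA7 at 3.64 and ATCOPIA87 at 3.72 CPM per kb. ATCOPIA78 (ONSEN, known for its activation by heat) stood at 203 CPM per kb, and ATCOPIA93 (EVADÉ, known for mobility in plants with lowered DNA methylation) at 131.

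Between the heterozygotes most Copia families did not pass the test at 24 nt. Of 104 families tested, 5 (4.81%) were lower in mat nrpd1+/- than in pat nrpd1+/-, and 0 were higher. Over all TE families tested, Copia included, 6 of 317 were lower (1.89%) and 0.315% higher. The median log2 difference was 0.03 for Copia families and 0.03 for all families, 21 Copia families had an unadjusted p under 0.05 in either direction, and the DESeq2 test gave 5 lower and 0 higher. Scaling moved this comparison as a whole. The median log2 difference over all TE families was 0.25 with DESeq2 size factors and 0.84 without trimmed-mean factors, and the counts of Copia families lower and higher were then 3 and 3, and 1 and 20. The Copia median stayed within 0.02 of the median over all families in each case.

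ATCOPIA57 showed the largest difference. It had 1025, 1077 and 819 reads of 24 nt in mat nrpd1+/- and 6642 and 2271 in pat nrpd1+/-, or 769 ± 49.9 CPM (SD, n = 3) against 2924 ± 546 (SD, n = 2). Each pat nrpd1+/- library was above each mat nrpd1+/- library, and the log2 difference was -1.93 (SE 0.14, edgeR adjusted p = 8.4e-06). It was called under all alternative settings except without its most-read insertion, AT1TE58560, where the log2 difference was -0.49. ATCOPIA72 had 370, 359 and 303 reads against 1058 and 671 (log2 -1.22, SE 0.16, adjusted p = 0.00059). Its groups did not overlap, but without pat nrpd1+/- replicate 3 the log2 difference was -0.91 and not called. ATCOPIA87, a family with very few reads, had 17, 17 and 17 reads against 69 and 45 (log2 -1.58, SE 0.28, adjusted p = 0.0031).

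ATCOPIA2 and ATCOPIA3, the remaining called families, lay close to the 2-fold limit and were added after their values were seen. ATCOPIA2 had 719, 551 and 496 reads against 1670 and 1008 (log2 -1.07, edgeR adjusted p = 0.0010), and was not called without mat nrpd1+/- replicate 2 (-0.996) or pat nrpd1+/- replicate 3 (-0.80). ATCOPIA3 had 646, 637 and 485 reads against 2308 and 666 (log2 -1.04, adjusted p = 0.0026), with only a small gap in raw reads at pat nrpd1+/- replicate 3. It was not called without pat nrpd1+/- replicate 2 (-0.66) or mat nrpd1+/- replicate 3 (-0.98). Single insertions held most of these reads. One insertion held 53.9% of the 24-nt reads of ATCOPIA57, 57.6% of ATCOPIA87, 83.7% of ATCOPIA72, 95.7% of ATCOPIA2 and 58.7% of ATCOPIA3, and without each family's most-read insertion 1 Copia family was lower and 1 higher.

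**Figure D2:**
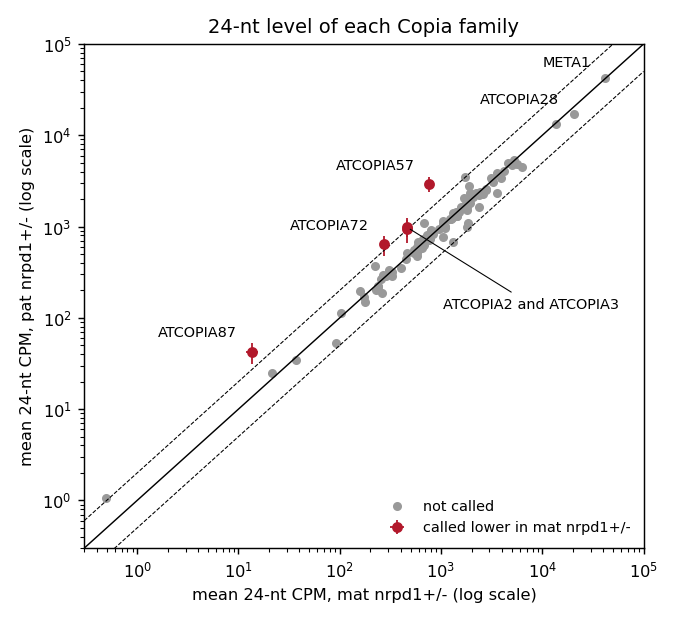
Mean 24-nt level of each Copia family in pat nrpd1+/- against mat nrpd1+/- (CPM, logarithmic axes); the solid line is equality, the dashed lines are 2-fold differences, and the 5 called families are drawn in red with SD bars. The called families lie on the pat nrpd1+/- side, and META1, the highest family, lies at equality.

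Families known for mobility or for a role beside a host gene gave no call at 24 nt between the heterozygotes. ATCOPIA93 had 3456, 3097 and 2625 reads in mat nrpd1+/- and 4327 and 2302 in pat nrpd1+/- (log2 0.03, SE 0.13). ATCOPIA78 had 5145, 5297 and 4239 against 5786 and 3519 (log2 0.19, SE 0.15). In both families the groups overlapped in CPM. ATCOPIA21, mobile in ddm1-type mutants, and ATCOPIA4, of which a copy sits in an intron of the immune receptor gene RPP7, had log2 differences of 0.01 (SE 0.12) and 0.08 (SE 0.12). ATCOPIA13, also mobile in such mutants, had 2844, 2501 and 1823 reads against 4689 and 2925. It was lower in mat nrpd1+/- at an adjusted p of 0.037 (edgeR) but under 2-fold, with a log2 difference of -0.58 (SE 0.16). META1 stood at 41613 ± 1876 CPM (SD, n = 3) in mat nrpd1+/- and 42487 ± 8643 (SD, n = 2) in pat nrpd1+/- (log2 -0.03, SE 0.11). Among the other most-read families ATCOPIA28, ATCOPIA95, ATCOPIA49, ATCOPIA29 and ATCOPIA41 had log2 differences from -0.02 to 0.49, and none was called.

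ATCOPIA57 and ATCOPIA3 were also lower in mat nrpd1+/- at 22 and 21 nt, sizes counted in the same libraries. At 22 nt 7 of 101 Copia families (6.93%) were lower, beside 10 of all 312 families tested (3.21%), Copia included. Of the Copia families 0 were higher (0.321% of all), with 20 at an unadjusted p under 0.05 and 7 and 0 by DESeq2. ATCOPIA57 had 119, 109 and 66 reads of 22 nt against 612 and 371 (log2 -2.52, edgeR adjusted p = 7.7e-09), and ATCOPIA3 had 60, 57 and 33 against 322 and 110 (log2 -2.27). In both, each pat nrpd1+/- library was above each mat nrpd1+/- library. The other 5 called families, added after their values were seen, were ATCOPIA37 (log2 -2.001), ATCOPIA61 (-1.42), ATCOPIA2 (-1.09), ATCOPIA36 (-1.02) and ATCOPIA72 (-1.01). Without pat nrpd1+/- replicate 3 the count was 4. With DESeq2 size factors 4 families were lower and 3 higher, and without trimmed-mean factors 0 and 0, where the median over all families moved from 0.14 to 0.43 and 1.38.

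At 21 nt 5 of 101 Copia families (4.95%) were lower, beside 7 of all 313 families tested (2.24%), Copia included. Of the Copia families 0 were higher (0.958% of all), with 27 at an unadjusted p under 0.05 and 5 and 0 by DESeq2. With DESeq2 size factors 5 were lower and 2 higher. ATCOPIA3 had 54, 51 and 39 reads of 21 nt against 964 and 364 (log2 -3.35, edgeR adjusted p = 4.3e-35). The pat nrpd1+/- libraries were far above the others, and 88.8% of those reads lay in 1 insertion, AT4TE32055. ATCOPIA57 had 74, 92 and 49 against 487 and 336 (log2 -2.16), again without overlap. ATCOPIA37 (-1.48), ATCOPIA48 (-1.35) and ATCOPIA61 (-1.23) were also called and were added after their values were seen. Without its most-read insertion ATCOPIA3 was higher in mat nrpd1+/- at 24, 22 and 21 nt, by log2 0.39, 0.47 and 1.05.

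Single insertions differed in both directions. Of 880 Copia insertions tested at 24 nt, 21 were lower in mat nrpd1+/-, against 2.69% of all TE insertions tested, and 22 were higher, against 3.06%. The 537 other members had too few reads to test. The lower 21 came from 18 families and the higher 22 from 18, with median lengths of 450 and 824 bases. The lower 21 held 1.21%, 1.14% and 1.17% of the Copia 24-nt reads in mat nrpd1+/- and 6.48% and 4.32% in pat nrpd1+/-, values that chose them. With DESeq2 size factors 16 were lower and 34 higher, and without trimmed-mean factors 13 and 305, so the balance of directions follows the scaling. In nrpd1-/-, which took no part in that choice, the lower 21 held 5.17%, 2.97% and 1.38%, on 268, 155 and 39 reads. These shares fell from replicate 1 to replicate 3, and the last lay near those of mat nrpd1+/-. The higher 22 held 1.26%, 1.70% and 2.12% in nrpd1-/-, on 65, 89 and 60 reads. For both sets these are shares of a far smaller Copia total in nrpd1-/-, so they do not show a kept level. Leaving out pat nrpd1+/- replicate 3 raised the count higher in mat nrpd1+/- from 22 to 55, and leaving out mat nrpd1+/- replicate 1 or 2 or pat nrpd1+/- replicate 2 gave 13, 12 and 14.

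The 2 named insertions with no 24-nt read in mat nrpd1+/- were short. AT4TE45215 (META1) had 0, 0 and 0 reads in mat nrpd1+/-, 1463 and 279 in pat nrpd1+/-, then 19, 14 and 1 in nrpd1-/-. It was at least 659-fold lower in mat nrpd1+/- than in pat nrpd1+/-, taking 3 reads over the mat nrpd1+/- libraries as the floor. Its raw 21-nt reads were 0, 0 and 0, then 285 and 78, then 5, 0 and 0. The ATREP4 helitron insertion AT4TE45210, 316 bases away, had 6, 2 and 2 reads of 24 nt in mat nrpd1+/-, 587 and 139 in pat nrpd1+/-, then 9, 4 and 0 in nrpd1-/-. AT2TE01450 (ATCOPIA75) had 0, 0 and 0 reads, 322 and 138, and 7, 1 and 0, at least 199-fold lower in mat nrpd1+/-. AT2TE72255 (ATCOPIA21, chr2:16125701-16126499, overlapping the pseudogene AT2G38520) had 0, 1 and 1 reads in mat nrpd1+/-, 112 and 85 in pat nrpd1+/-, then 0, 0 and 0 in nrpd1-/- (log2 -6.89, SE 0.54, edgeR adjusted p = 1.7e-05). At each of these 3 insertions both pat nrpd1+/- libraries lay above the 3 mat nrpd1+/- libraries. Raw reads do not place nrpd1-/-, whose libraries held far fewer 24-nt reads. How much of that is depth and how much is loss of 24-nt sRNA was not tested. Genic 22-nt reads were 187467 to 265785 in nrpd1-/- and 205669 to 231442 in mat nrpd1+/-. As a share of the Copia 24-nt reads of its library AT4TE45215 took 0.379% and 0.130% in pat nrpd1+/- and 0.367%, 0.268% and 0.0354% in nrpd1-/-, and these ranges overlap. AT2TE01450 took 0.0835% and 0.0644%, then 0.135%, 0.0191% and 0%, the last 2 on 1 read and none. The Copia total was itself only 2828 to 5224 reads in nrpd1-/-, so an overlap in share does not show a kept level.

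Other insertions, chosen after their values were seen, carried more reads. AT4TE22775 (ATCOPIA37, chr4:5439885-5440334, +) had 44, 37 and 26 reads in mat nrpd1+/-, 4299 and 1026 in pat nrpd1+/-, then 62, 17 and 2 in nrpd1-/- (log2 mat against pat -5.87, SE 0.27, edgeR adjusted p = 3.3e-07). AT1TE58560 (ATCOPIA57) had 80, 137 and 89, then 4634 and 1438, then 69, 31 and 4 (log2 -4.60, adjusted p = 7.0e-07). Its near copy AT2TE19990 had 65, 58 and 61, then 1099 and 271, then 11, 14 and 1 (log2 -3.14). In these both pat nrpd1+/- libraries stood far above the mat nrpd1+/- libraries. As shares of the Copia 24-nt reads of each library, pat nrpd1+/- and nrpd1-/- overlapped at all 3, for example at AT2TE19990 with 0.285% and 0.126% against 0.212%, 0.268% and 0.0354%, while mat nrpd1+/- had 0.0197% to 0.0264%. The nrpd1-/- shares are of a far smaller Copia total, so they do not show a kept level. Since each read was kept at 1 best alignment, reads from identical stretches of such copies can be placed at either. At AT4TE32055 (ATCOPIA3) the 24-nt reads were 206, 195 and 134 against 1797 and 450 (log2 -2.33), and the 21-nt reads were 11, 7 and 9 against 938 and 342. The next insertion of that family, AT5TE36035, had 298, 323 and 229 reads of 24 nt against 271 and 119 (log2 0.74, not called).

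**Figure D3:**
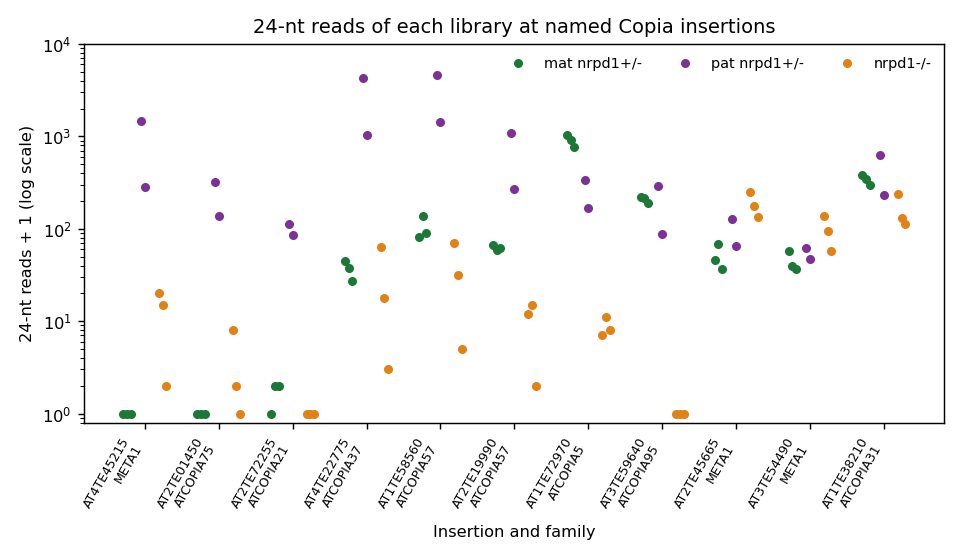
Reads of 24 nt plus 1 (logarithmic y axis) in each library at 11 Copia insertions (x axis), coloured by genotype and not scaled for depth. AT4TE45215 and AT2TE01450 have 0 reads in all mat nrpd1+/- libraries, and AT2TE45665 and AT3TE54490 have their highest reads in nrpd1-/-.

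In the opposite direction, the rule for named insertions gave AT1TE72970, AT2TE05315 and AT2TE18675. AT1TE72970, a 4686-base ATCOPIA5 element (chr1:22100644-22105329, -), had 1045, 903 and 763 reads in mat nrpd1+/- against 339 and 168 in pat nrpd1+/-, or 712 ± 27.1 CPM (SD, n = 3) against 178 ± 13.3 (SD, n = 2). The groups were well apart (log2 2.00, SE 0.14, edgeR adjusted p = 6.1e-06), and nrpd1-/- had 6, 10 and 7 reads. It was called under every alternative setting, with log2 differences from 1.94 to 2.84. Whether AT1TE72970 lies in Col-0 sequence kept by the mutant Ler mothers, or is present in Ler, was not examined. AT2TE05315 (ATCOPIA24) and AT2TE18675 (ATCOPIA45) rested on few reads, 29, 41 and 22 against 16 and 4, and 38, 50 and 21 against 14 and 9. AT2TE05315 was not called without mat nrpd1+/- replicate 2, and AT2TE18675 was not called without mat nrpd1+/- replicate 1 or 2 or without pat nrpd1+/- replicate 2.

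In nrpd1-/- 24-nt sRNAs were lower at nearly all Copia families. Against mat nrpd1+/-, 97 of 102 families tested were lower (93.9% of all TE families tested) and 1 was higher (3.5%), and against pat nrpd1+/- 98 of 100 were lower (95.2%) and 1 higher (3.54%). The shares are close to those of all families. Both comparisons use the same nrpd1-/- libraries. The median Copia log2 change was -2.56 against mat nrpd1+/- and -2.72 against pat nrpd1+/-, beside -2.64 and -2.78 over all families. These sizes depend on scaling, with trimmed-mean factors of 2.25 to 2.36 in mat nrpd1+/- against 0.351 to 0.532 in nrpd1-/-. The median over all families against mat nrpd1+/- was -4.75 with DESeq2 size factors, -5.08 without trimmed-mean factors and -5.11 with the library totals of quality-filtered reads. Changes in nrpd1-/- are therefore best read relative to the median of all families, and the Copia median lay 0.08 to 0.09 above it in each of these settings.

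The families that fell most were ATCOPIA38, ATCOPIA23 and ATCOPIA22 against mat nrpd1+/- and ATCOPIA38, ATCOPIA16 and ATCOPIA17 against pat nrpd1+/-. ATCOPIA38 had 3924, 3843 and 2891 reads in mat nrpd1+/-, 4314 and 2581 in pat nrpd1+/-, then 23, 24 and 11 in nrpd1-/- (log2 -3.71, SE 0.19, and -3.72, SE 0.42). In raw reads each nrpd1-/- library lay far below each heterozygous library. ATCOPIA23 and ATCOPIA22 changed by log2 -3.49 and -3.40 against mat nrpd1+/-, and ATCOPIA16 and ATCOPIA17 by -3.67 and -3.47 against pat nrpd1+/-. META1 had 57722, 57068 and 43562 reads, 73001 and 43497, and 773, 725 and 433, a change of -2.56 (SE 0.20) against mat nrpd1+/- and -2.74 (SE 0.37) against pat nrpd1+/-, near the median. The known mobile families fell too. Against mat nrpd1+/- the log2 changes were -2.56 in ATCOPIA93, -3.002 in ATCOPIA78, -2.41 in ATCOPIA13, -1.76 in ATCOPIA21 and -1.60 in ATCOPIA4, and against pat nrpd1+/- -2.69, -2.97, -3.16, -1.92 and -1.68. ATCOPIA21 and ATCOPIA4 thus fell less than the median family and ATCOPIA78 more, without a test of that difference.

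At 23 and 22 nt the losses were broader. At 23 nt 102 of 102 Copia families were lower in nrpd1-/- than in mat nrpd1+/- (99.7% of all families tested) and 0 were higher (0.0%), by edgeR and by DESeq2, all 102 with an unadjusted p under 0.05. At 22 nt 97 of 98 were lower against each heterozygote (98.1%) and 0 higher (0.324%), also by DESeq2, with 98 and 97 at an unadjusted p under 0.05. The median Copia log2 change was -6.79 at 23 nt, and at 22 nt -5.03 against mat nrpd1+/- and -4.78 against pat nrpd1+/-, beside -6.84, -5.10 and -4.90 over all families. The family not called at 22 nt was ATCOPIA31, at log2 0.42 and -0.10.

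ATCOPIA31, ATCOPIA57 and ATCOPIA95 had the highest log2 changes of 24-nt reads in nrpd1-/- against mat nrpd1+/-. ATCOPIA31, a family of 8 insertions, had 851, 777 and 618 reads of 24 nt in mat nrpd1+/-, 1234 and 555 in pat nrpd1+/-, then 382, 215 and 190 in nrpd1-/-. Its share of the Copia 24-nt reads was 0.268% ± 0.00440 (SD, n = 3) in mat nrpd1+/- and 6.07% ± 1.72 (SD, n = 3) in nrpd1-/-. It was the 1 family called higher, at log2 2.30 (SE 0.17, edgeR adjusted p = 7.8e-12) against mat nrpd1+/- and 2.05 (SE 0.43) against pat nrpd1+/-. That direction is relative to the scaling, since its reads fell in number and the change was 0.19 with DESeq2 size factors, -0.16 without trimmed-mean factors and -0.18 with library totals. Relative to the median of all families it was higher under each. At 23 nt it had 361, 313 and 211 reads in mat nrpd1+/- and 28, 25 and 17 in nrpd1-/-, a fall of log2 -2.47 and the smallest of the 102 families. In nrpd1-/- nearly all 24-nt reads of ATCOPIA31 lay in AT1TE38210 (239, 129 and 112) and AT5TE66565 (142, 83 and 76). These copies are near-identical, so the family call rests on a single sequence.

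ATCOPIA95 had 19563, 19008 and 13608 reads of 24 nt in mat nrpd1+/-, 23676 and 12997 in pat nrpd1+/-, then 1380, 1375 and 564 in nrpd1-/-. Its share of the Copia 24-nt reads was 6.20% ± 0.281 (SD, n = 3) in mat nrpd1+/- and 24.3% ± 3.78 (SD, n = 3) in nrpd1-/-, without overlap. Its log2 change was -0.18 (SE 0.23) against mat nrpd1+/- and -0.27 (SE 0.38) against pat nrpd1+/-, neither called. Reads in nrpd1-/- were found at 49, 50 and 40 of its 72 insertions, but a few insertions held much of them. AT5TE36475 had 510, 428 and 188, AT1TE51780 had 211, 205 and 52, and AT5TE36470, which adjoins AT5TE36475, had 88, 69 and 42. Against mat nrpd1+/- 3 other families were also not called, ATCOPIA57 (-0.14), ATCOPIA77 (-0.97) and ATCOPIA6 (-1.74). ATCOPIA57 had 104, 64 and 21 reads in nrpd1-/-, with replicate 1 highest, and without nrpd1-/- replicate 1 its change was -1.27 and called. Against pat nrpd1+/-, where it is high, it fell by 2.26 on the log2 scale.

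In nrpd1-/- 21-nt reads made up a larger share of the remaining Copia sRNA. Of the 21-, 22- and 24-nt reads in Copia insertions, 24-nt reads were 50.2% ± 7.13 in nrpd1-/- (SD, n = 3), below the 82.8% ± 0.937 of mat nrpd1+/- (SD, n = 3) and the 83.4% ± 4.15 of pat nrpd1+/- (SD, n = 2). The 21-nt share was 8.36%, 8.25% and 7.98% in mat nrpd1+/-, 7.88% and 10.6% in pat nrpd1+/-, then 34.8%, 37.9% and 45.3% in nrpd1-/-. No nrpd1-/- library overlapped a heterozygote (exact permutation p = 0.1 and 0.2, the smallest possible). Other TEs moved the same way but less far, with a 21-nt share of 8.44% ± 0.283 in mat nrpd1+/- and 24.0% ± 3.06 in nrpd1-/- (SD, n = 3 each). Among the 52 Copia families with at least 100 reads in nrpd1-/-, all 52 had a higher 21-nt share there than in mat nrpd1+/-, with a median of 31.5% (range 19.5% to 68.4%) against 8.29%.

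ATCOPIA31 stood apart in this mix in each genotype. Its 21-nt share was 38.1%, 39.3% and 45.4% in mat nrpd1+/-, 51.9% and 50.3% in pat nrpd1+/-, then 65.0%, 69.8% and 71.3% in nrpd1-/-. ATCOPIA95 had 8.97%, 8.59% and 10.001%, then 12.5% and 12.6%, then 33.8%, 41.1% and 48.3%. META1 had 7.42%, 7.41% and 7.15%, then 5.99% and 8.74%, then 22.4%, 23.6% and 30.1%. All 3 families were higher in each nrpd1-/- library than in any heterozygous library, from very different starting points. Nearly all 21-nt reads of ATCOPIA31 lay in AT1TE38210 (698, 511 and 530 in nrpd1-/-) and AT5TE66565 (227, 221 and 252). Since these copies are near-identical, its mix describes a single sequence rather than the family.

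**Figure D4:**
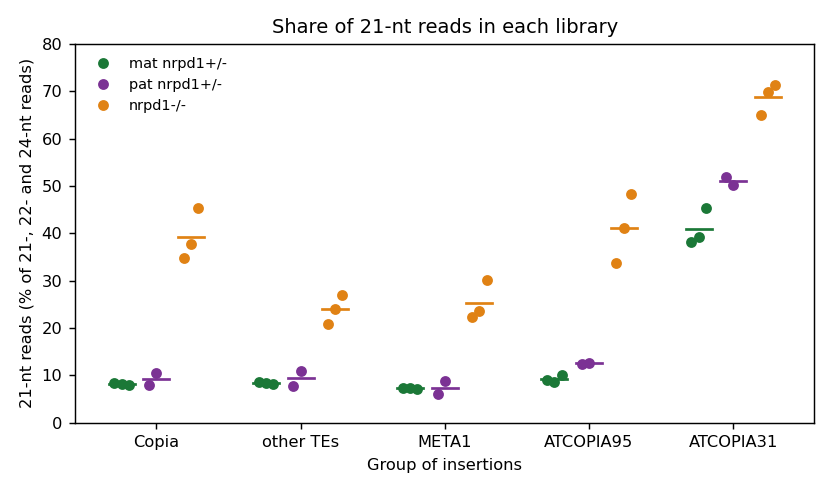
The 21-nt reads as a share of 21-, 22- and 24-nt reads (y axis, percent) in each library for all Copia insertions, other TEs, META1, ATCOPIA95 and ATCOPIA31 (x axis); points are libraries, lines are genotype means. Each set is higher in nrpd1-/- than in the heterozygotes, and ATCOPIA31 starts at 38.1% or higher in mat nrpd1+/-.

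Levels of 21-nt sRNA in nrpd1-/- were scaled mainly by the 24-nt sizes of the same libraries, since the 21-nt gene table of nrpd1-/- could not be used. On that scale 16 of 99 Copia families were higher than in mat nrpd1+/- (15.4% of all families tested) and 8 lower (12.5%), and against pat nrpd1+/- 4 of 64 were higher (10.1%) and 3 lower (11.2%). The Copia counts lie near or below these shares. The median Copia log2 change was -0.04 against mat nrpd1+/- and -0.26 against pat nrpd1+/-, beside -0.07 and -0.37 over all families. ATCOPIA31 led, with 612, 581 and 594 reads of 21 nt in mat nrpd1+/-, 1547 and 699 in pat nrpd1+/-, then 926, 732 and 786 in nrpd1-/- (log2 4.25 and 3.37). Each nrpd1-/- library had more 21-nt reads of ATCOPIA31 than any mat nrpd1+/- library. Nearly all of these reads lay in its near-identical copies AT1TE38210 and AT5TE66565. ATCOPIA95 (log2 2.61 and 2.03) and ATCOPIA4 (1.51 and 1.85) were higher against both heterozygotes, and ATCOPIA38 (-1.71 and -1.82) was lower against both. ATCOPIA4 had only 24, 26 and 15 reads of 21 nt in nrpd1-/-. Without nrpd1-/- replicate 1, 2 or 3 its log2 change against mat nrpd1+/- was 0.87, 0.86 and 0.92, under 2-fold. With the other scalings the median over all families against mat nrpd1+/- lay between -2.17 and -3.40. With DESeq2 size factors 85 Copia families were then lower and 1 higher, and with 22-nt library sizes 97 and 0, so these directions hold only relative to the other families. Leaving out 1 mat nrpd1+/- library gave 2 to 3 families lower, and leaving out nrpd1-/- replicate 1, 2 or 3 gave 21, 26 and 36, with 4 and 7 higher without replicates 2 and 3.

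At the level of insertions, 612 of 684 tested were lower at 24 nt in nrpd1-/- than in mat nrpd1+/- (87.9% of all TE insertions tested) and 11 higher (2.57%). Against pat nrpd1+/- 384 of 398 were lower (96.4%) and 7 higher (1.9%). Without any 1 mat nrpd1+/- library the lower count was 375, 378 and 377. The low-count filter was run again on the libraries left, so the number tested can differ and these counts are not shares. In all, 555 of the 1417 Copia insertions had no 24-nt read in any nrpd1-/- library, against 79 in mat nrpd1+/- and 81 in pat nrpd1+/-. Of all members 30 had none in any of the 8 libraries. AT3TE59640 (ATCOPIA95) had 221, 215 and 191 reads in mat nrpd1+/-, 287 and 86 in pat nrpd1+/-, then 0, 0 and 0 in nrpd1-/-. Its level was at least 14.9-fold lower than in mat nrpd1+/- and at least 12.2-fold lower than in pat nrpd1+/-. So within ATCOPIA95 some insertions kept reads and this one lost them. AT5TE44545 (ATCOPIA28) and AT5TE61740 (ATCOPIA62), also at 0 in nrpd1-/-, lay below mat nrpd1+/- by factors of at least 8.38 and 7.18.

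Against pat nrpd1+/- the largest falls also included AT4TE23430 and AT4TE10320. AT4TE23430 (ATCOPIA75, chr4:5592875-5596252, +) had 512 and 260 reads in pat nrpd1+/- and 0, 0 and 1 in nrpd1-/- (log2 -6.29). AT4TE10320, a 5336-base ATCOPIA93 copy (chr4:2188979-2194314, +) that overlaps the protein-coding gene AT4G04415, had 318, 275 and 258 reads in mat nrpd1+/-, 466 and 168 in pat nrpd1+/-, then 0, 1 and 0 in nrpd1-/- (log2 -5.92 against pat nrpd1+/-). The most-read ATCOPIA93 copy, AT1TE41580 (chr1:12755060-12760395, +) and of the same length, kept more, with 1087, 919 and 750, then 1581 and 736, then 12, 19 and 9. The most-read ATCOPIA78 copy, AT1TE71045 (chr1:21524995-21529851, -), had 1778, 1848 and 1514, then 1898 and 987, then 14, 15 and 15.

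Of the insertions called higher in nrpd1-/-, 7 were called against both heterozygotes, 2 from META1, 2 from ATCOPIA31 and 3 from ATCOPIA95. For AT2TE45665 (META1) the reads themselves rose in number. It had 45, 68 and 36 reads of 24 nt in mat nrpd1+/-, 126 and 64 in pat nrpd1+/-, then 247, 175 and 133 in nrpd1-/-. Each nrpd1-/- library thus exceeded each heterozygous one despite its lower total of 24-nt reads. The log2 change was 5.70 (SE 0.16, edgeR adjusted p = 1.2e-266) against mat nrpd1+/- and 4.76 (SE 0.51) against pat nrpd1+/-, and over the alternative settings 3.23 to 6.01 and 3.09 to 4.92. Its 21-nt reads were 43, 32 and 31, then 108 and 85, then 109, 72 and 80. AT3TE54490 (META1) had 56, 39 and 36, then 61 and 46, then 135, 93 and 57, and its groups were apart in CPM, although nrpd1-/- replicate 3 had slightly fewer reads than pat nrpd1+/- replicate 2. Its log2 change was 4.92 (SE 0.19) and 4.55 (SE 0.43), with 2.45 to 5.12 and 2.80 to 4.79 over the alternatives. Both were called under each alternative, while META1 as a family fell by 2.56 on the log2 scale.

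These 2 META1 insertions ranked first and second of all 1417 members for the best inverted repeat within the insertion, a feature looked at after their values were seen and given as a description. In AT2TE45665 positions 647 to 906 faced positions 908 to 1178 when the insertion was aligned with its reverse complement, with a score of 425. That alignment listed 220 complementary among 272 paired positions (80.9%). Some bases were counted with several partners, so this share is not that of a strict pairing. In AT3TE54490 positions 2 to 120 pair with positions 122 to 242, with 103 complementary in 119 (86.6%) and a score of 299. The median score over the members was 24, and 3 members reached 200. The third, AT2TE17880 (ATCOPIA95, score 271), had 495, 423 and 356 reads in mat nrpd1+/- and 16, 10 and 8 in nrpd1-/- (log2 -1.41), so a high score did not always go with more reads in nrpd1-/-. The 2 META1 insertions also matched each other at 365 of 379 aligned bases (96.3%), so they are not independent examples. Whether the repeat bears on the reads was not tested.

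**Figure D5:**
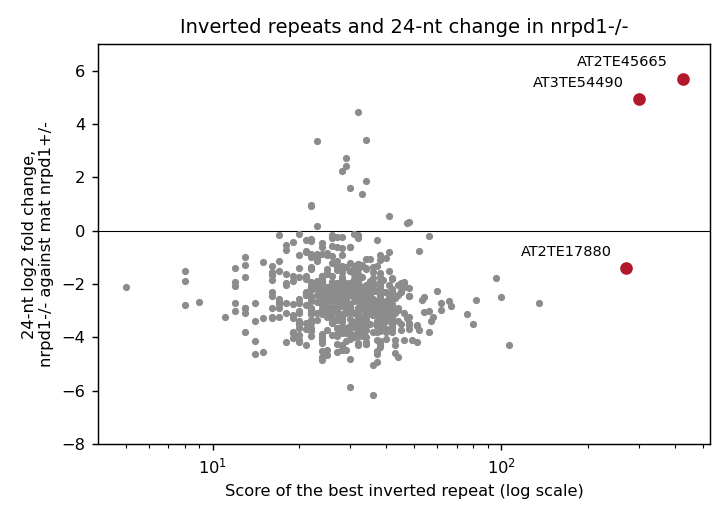
Score of the best inverted repeat within an insertion (x axis, log scale) against the log2 change of 24-nt reads in nrpd1-/- against mat nrpd1+/- (y axis) for 640 of the 684 Copia insertions tested, leaving out 44 with no read in nrpd1-/-. AT2TE45665 and AT3TE54490 stand at the upper right, and AT2TE17880, with the third highest score, lies at -1.41.

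The other insertions called higher in nrpd1-/- against both heterozygotes had fewer 24-nt reads there than in mat nrpd1+/-, so that their direction is relative to other TEs. AT1TE38210 (ATCOPIA31) had 377, 345 and 295 reads in mat nrpd1+/-, 624 and 229 in pat nrpd1+/-, then 239, 129 and 112 in nrpd1-/- (log2 2.72 and 2.46), and was not called against mat nrpd1+/- with DESeq2 size factors (0.61), without trimmed-mean factors (0.26) or with library totals (0.25). Its copy AT5TE66565 had 270, 289 and 222, then 394 and 196, then 142, 83 and 76 (log2 2.43 and 2.24). The 2 copies were identical at 4627 of 4629 aligned bases, so their reads cannot be told apart and they count as 1 observation. AT5TE36475, the most-read ATCOPIA95 insertion, had 2070, 1952 and 1218, then 2093 and 1077, then 510, 428 and 188 (log2 1.59 and 1.71). It and the further ATCOPIA95 insertions AT5TE36470 (1.39 and 1.34) and AT1TE51780 (1.87 and 1.65) had log2 changes below 0 against mat nrpd1+/- with each of those 3 scalings. AT5TE36470 directly adjoins AT5TE36475. Without nrpd1-/- replicate 1 or 2 AT5TE36475 was at 0.74 and 0.98 against mat nrpd1+/- and not called.

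Long insertions held less of the Copia 24-nt reads in nrpd1-/- than in the heterozygotes. Copia insertions of at least 2000 bases held 70.3%, 69.7% and 70.4% of the Copia 24-nt reads in mat nrpd1+/- and 68.0% and 69.5% in pat nrpd1+/-, but 52.0%, 54.1% and 56.2% in nrpd1-/-. Those of 500 to just under 2000 bases held 18.5%, 18.5% and 18.2% in mat nrpd1+/- and 35.6%, 32.8% and 32.5% in nrpd1-/-. In nrpd1-/- this class had 1843, 1716 and 918 reads, and insertions named above supplied much of them. They were AT5TE36475 (510, 428 and 188), AT2TE45665 (247, 175 and 133), AT1TE51780 (211, 205 and 52), AT3TE54490 (135, 93 and 57) and AT5TE36470 (88, 69 and 42). The shift between length classes rests largely on these insertions, which were picked as high in nrpd1-/-. Against mat nrpd1+/-, 95.3% of tested insertions of at least 2000 bases were lower in nrpd1-/-, 88.3% of those of 500 to just under 2000 bases and 84.1% of those under 500 bases, and other TEs had 96.0%, 89.1% and 82.9%. Between the heterozygotes 2 of 28 tested Copia insertions that overlap a protein-coding gene were lower in mat nrpd1+/- (7.14%), 12 of 288 within 1 kb of one (4.17%) and 7 of 564 farther away (1.24%), beside 5.21%, 4.05% and 1.82% of other TEs. Within 1 kb 15 were higher (5.21%) and farther away 7 (1.24%), and no difference between these distance classes was tested.

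Wild-type endosperm was available as the mean of each deposited table, with no spread. At 24 nt the normalised counts summed over Copia insertions were 1.14 times that mean in mat nrpd1+/- (SD 0.0413 over 3 libraries) and 1.06 times in pat nrpd1+/- (SD 0.144 over 2 libraries), beside 1.09 and 1.07 over all TEs. ATCOPIA57 stood at 0.408 of the wild-type mean in mat nrpd1+/- and at 1.47 in pat nrpd1+/-, and ATCOPIA2 and ATCOPIA72 at 0.480 and 0.504 in mat nrpd1+/-. ATCOPIA26 was highest in mat nrpd1+/- at 2.06. In nrpd1-/- the ratio was 0.0617 at 22 nt and 0.0183 at 23 nt, beside 0.147 and 0.0473 over all TEs. At 24 nt it was 0.400 for Copia beside 1.25 over all TEs in a table normalised for that pair, so the ratio within nrpd1-/- tables is not an absolute loss.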

How the data were processed

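sRNA-seq libraries of dissected endosperm (NEXTflex kit) were trimmed with cutadapt, freed of PCR duplicates through random adapter bases, and aligned with Bowtie 1.2.2 to Col-0 TAIR10 joined with a Ler pseudo-genome (Col-0 carrying Ler SNPs), keeping 1 best alignment per read, after which Ler positions were moved to Col-0 coordinates. The authors counted reads of 21, 22, 23 and 24 nt separately per gene and per TE with bedtools, and deposited for each library the raw counts. They also deposited a normalised signal (counts scaled by DESeq2 size factors within each table) and a wild-type mean of that signal. Of 30 tables, 12 on transposons and 12 on genes were opened, and 6 window lists were not used. Their columns of fold changes and p-values hold the study's own findings and were not used, and 319 per-library columns that match no sample here were left out. At 24 nt 87.8% to 88.5% of reads lay in no gene in mat nrpd1+/-, 80.9% and 84.7% in pat nrpd1+/-, but 56.2% to 57.6% in nrpd1-/-.

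Raw counts were tested as deposited, 2 genotypes at a time, with edgeR 4.0.16 (quasi-likelihood, filterByExpr) in R 4.3.3. Library sizes were reads in genes (at 24 nt 880535 to 1099934 in mat nrpd1+/-, 1117563 and 3274885 in pat nrpd1+/-, 281070 to 484720 in nrpd1-/-) times TMM factors from genes. The 21-nt gene table of nrpd1-/- could not be used, so 21-nt comparisons with nrpd1-/- took the 24-nt sizes of the same libraries. The 23-nt TE columns of pat nrpd1+/- were not used because their names match no library here. Tests ran on all 319 TE families or all 27104 insertions, with Benjamini-Hochberg adjustment over that table, an adjusted p of at most 0.05 and at least a 2-fold change. Per the study's methods, replicates of a genotype were pools of seeds from crosses between different parent plants. Alternatives were DESeq2 (1.42.0) size factors or test, no TMM factors, the study's library totals, no filter, a replicate block, leaving out each library, and leaving out each family's most-read insertion. Fits were tested on simulated counts. Shares were compared by exact 2-sided permutation tests (scipy 1.17.1), whose smallest p is 0.1 for 3 against 3 libraries. Floors (3 reads over the group) cover counting error only. Inverted repeats and identities were computed with Biopython 1.88.

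Members and lists were chosen with earlier results of these data known. The named families were ATCOPIA93, ATCOPIA78, ATCOPIA13, ATCOPIA21, ATCOPIA4 and META1, the 6 with the highest 24-nt CPM, the 3 called with the largest change per direction in each 24-nt comparison, and the 2 per direction at 21 and 22 nt between the heterozygotes. The named insertions were the 3 per direction with at least 20 reads in every library of the higher genotype and no overlap, and the most-read insertions of the first 12 families. ATCOPIA2, ATCOPIA36, ATCOPIA37, ATCOPIA48 and ATCOPIA61, the uncalled families in nrpd1-/-, ATCOPIA26 and other named insertions were chosen after their values were seen.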

Additional observations from a re-analysis of the deposited data

How the results depend on the processing

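Counts of Copia families and insertions lower in nrpd1-/- at 24, 23 and 22 nt kept their direction under every alternative run, while calls between the heterozygotes and at 21 nt moved with scaling, with single libraries and with single insertions. With DESeq2 size factors, no TMM factors, the replicate block and each family's most-read insertion left out, in that order, the families lower in mat nrpd1+/- than in pat nrpd1+/- numbered 3, 1, 2 and 1 at 24 nt, 4, 0, 3 and 1 at 22 nt, and 5, 2, 2 and 0 at 21 nt. Families higher numbered 3 and 20 at 24 nt with the first pair of settings and 1 without the most-read insertions, 3 and 1 at 22 nt, and 2 and 3 at 21 nt, with DESeq2 size factors and without those insertions. The family higher in nrpd1-/- at 24 nt was lost (0) against mat nrpd1+/- with DESeq2 size factors, no TMM factors or library totals, and against pat nrpd1+/- with DESeq2 size factors, no TMM factors or the replicate block. Library totals gave 1 higher at 22 nt. At 21 nt the families lower in nrpd1-/- than in mat nrpd1+/- were 85, 90, 97 and 90 with DESeq2 size factors, no TMM factors, 22-nt sizes and library totals (higher 1, 1, 0 and 1) and 4 without the most-read insertions. Against pat nrpd1+/- they were 60, 44 and 96 with the first 3 of these (higher 1, 1 and 0), 6 with the DESeq2 test, 0 with the replicate block (higher 1) and 0 without those insertions. Insertions lower in mat nrpd1+/- than in pat nrpd1+/- were 13 without TMM factors, and higher 34 with DESeq2 size factors and 305 without TMM factors. Insertions higher in nrpd1-/- than in mat nrpd1+/- were 3, 2 and 2 with DESeq2 size factors, no TMM factors and library totals and 21 without the filter, and than in pat nrpd1+/- 3, 4 and 15 with DESeq2 size factors, no TMM factors and no filter. Insertions lower than in pat nrpd1+/- were 578 with DESeq2 size factors and 637 without the filter. Leaving out 1 replicate gave the following ranges. Between the heterozygotes families lower were 4 to 5, 4 to 7 and 4 to 7 at 24, 22 and 21 nt and higher 0 to 3, 0 to 2 and 0 to 5, and insertions lower 17 to 25 and higher 12 to 55. At 21 nt families lower in nrpd1-/- were 2 to 36 against mat nrpd1+/- and 1 to 9 against pat nrpd1+/-, and higher 4 to 13 and 2 to 4. Insertions lower in nrpd1-/- were 375 to 719 against mat nrpd1+/- and 422 to 573 against pat nrpd1+/-, and higher 8 to 17 and 8 to 10. The low-count filter was run again for each of these fits, so the number tested can differ between them. The log2 differences that changed sign were, without the most-read insertion, ATCOPIA3 (0.39, 0.47 and 1.05 at 24, 22 and 21 nt), ATCOPIA48 (0.52 at 21 nt) and ATCOPIA61 (0.20 and 0.34 at 22 and 21 nt). Without TMM factors at 22 nt they were ATCOPIA2 (0.10), ATCOPIA36 (0.25) and ATCOPIA72 (0.25). In nrpd1-/- against mat nrpd1+/- they were ATCOPIA31 at 24 nt (-0.16 without TMM factors and -0.18 with library totals), and, at 21 nt with DESeq2 size factors, no TMM factors, 22-nt sizes and library totals, ATCOPIA4 (-0.60, -0.94, -1.83 and -0.96), ATCOPIA57 (-0.41, -0.74, -1.63 and -0.76) and ATCOPIA72 (-0.27, -0.61, -1.50 and -0.63), with ATCOPIA95 at -0.73 with 22-nt sizes. Insertions that did so at 24 nt against mat nrpd1+/- with DESeq2 size factors, no TMM factors and library totals were AT5TE36470 (-0.73, -1.07 and -1.09), AT5TE36475 (-0.55, -0.88 and -0.88) and AT1TE51780 (-0.28, -0.61 and -0.60), and AT5TE66565 with the last pair (-0.024 and -0.043). Against pat nrpd1+/- they were AT5TE36470 (-0.33 with DESeq2 size factors and -0.10 without TMM factors), AT5TE36475 (-0.013) and AT1TE51780 (-0.042), both with DESeq2 size factors. Copia held 5.85% of 24-nt TE reads in mat nrpd1+/- without its most-read insertion, and 4.92% in mat nrpd1+/- and 4.59% in pat nrpd1+/- without META1. Taken as a median over insertions, the ratio to the wild-type mean was 1.04, 0.966 and 0.561 at 21 nt in mat nrpd1+/-, pat nrpd1+/- and nrpd1-/- (1.09 in nrpd1-/- as a sum without the most-read insertion), 0.0343 at 22 nt and 0.265 at 24 nt in nrpd1-/-, and 1.07 and 0.00857 at 23 nt in mat nrpd1+/- and nrpd1-/-. For results with a sign change by scaling the construction of the alternative shifts all TEs together, and for the others the cause was not tested. Libraries with the same replicate number did not deviate together in every pair (correlations -0.01 to 0.43), so the numbers were not taken as pairs. Few reads in nrpd1-/- limit what can be tested there: 684 of 1417 insertions against mat nrpd1+/- and 398 against pat nrpd1+/-. Reads placed at 1 of several near-identical copies limit what single insertions show.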
